A study of Homo sapiens with 4 samples.

Results

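The 8 genes described here encode proteins of the red cell membrane and were chosen by name: SPTB, ANK1, EPB41, EPB42, SLC4A1, GYPB, GYPC and GYPE. Each was found on 1 row of the deposited table, out of 58274 gene identifiers in all. Levels are in FPKM, fragments scaled to transcript length and to the mapped fragments of a library. The source was the human line BC1, made of induced pluripotent stem cells, either undifferentiated or taken through hematopoietic differentiation, first with activin A and BMP4 and then with VEGF and bFGF. Mesoderm cells carrying the apelin receptor (APLNR+) were collected at day 2. The day 5 population, CD31+CD34+, is called hemogenic endothelial progenitors (HEPs), and the day 8 population, CD43+, hematopoietic progenitor cells (HPCs). All populations derive from this 1 line, and each was measured in 1 library, so the 4 libraries hold no replicate and no test of a difference between populations was possible. Differences between populations therefore also hold any difference between cultures, sorts and libraries, and these cannot be told apart. Approximate fragment numbers were recovered from the FPKM values. The median coding transcript, less 260 to 285 bases fitted per library, was taken as the length of a gene. Every 95% interval below covers counting error only, and its width depends on that assumed length.

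The red cell membrane is a lipid bilayer tied to a protein skeleton on its inner face. Spectrin forms flexible rods, ankyrin links these rods to the anion exchanger that spans the bilayer, and a further junction joins spectrin to actin and to glycophorin C. Glycophorins are sialic acid-rich surface proteins that carry blood group antigens, and inherited loss of skeleton proteins gives fragile red cells, as in hereditary spherocytosis and elliptocytosis.

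The libraries held between 19680000 and 23600000 mapped fragments by this estimate. Marker genes were first compared with the labels. The 15 erythroid markers summed to between 47.75 and 97.35 FPKM in BC1, APLNR+ and CD31+CD34+ cells and to 12020 FPKM in CD43+ cells, where all 15 reached 1 FPKM and the embryonic and fetal globins HBE1, HBG2 and HBZ led. The 10 megakaryocytic markers summed to between 5.911 and 108 FPKM before the CD43+ stage and to 3431 FPKM in it, with PF4, ITGA2B and PPBP highest and all 10 at 1 FPKM or more. The 9 myeloid markers summed to between 5.247 and 41.76 FPKM before the CD43+ stage and to 126.8 FPKM in it. The 3 of them that reached 1 FPKM there were SPI1 at 104.4 FPKM, LYZ at 12.72 FPKM and CSF1R at 8.798 FPKM, while the neutrophil elastase gene ELANE was listed at 0. The 8 endothelial markers summed to 1291 FPKM in CD31+CD34+ cells and to 216.6 FPKM in CD43+ cells. By a change of at least 1 in log2(FPKM + 1), 14 of 15 erythroid, 9 of 10 megakaryocytic and 2 of 9 myeloid markers rose at the last step. Of the 17137 genes with at least 1 FPKM in some library, 7.63% rose. The erythroid marker AHSP rests on about 6 fragments in CD43+ cells, at 3.082 FPKM, and stood at 2.346 FPKM in BC1. The part of any of these cell types in the levels of the 8 genes was not tested. In such bulk libraries, fewer cells of a type and less RNA per cell cannot be told apart.

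All 8 genes had their highest listed level in CD43+ cells. For GYPC, the levels of 62.71 FPKM in CD31+CD34+ cells and 66.44 FPKM in CD43+ cells did not differ beyond counting error. At least 1 FPKM was reached by 3 of the 8 genes in BC1, 4 in APLNR+ cells, 5 in CD31+CD34+ cells and 7 in CD43+ cells. Their summed level was 47.65, 78.78, 169.8 and 627.7 FPKM in the same order. They did not take the same course to that end. GYPC and EPB41 stood in the HEPs at 94.4% and 74.4% of their HPC level, ANK1 at 28.6%, and GYPE, SPTB, GYPB and SLC4A1 at 10.0%, 6.14%, 5.6% and 1.58%, while EPB42 was detected in the HPCs alone.

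**Figure D1:**
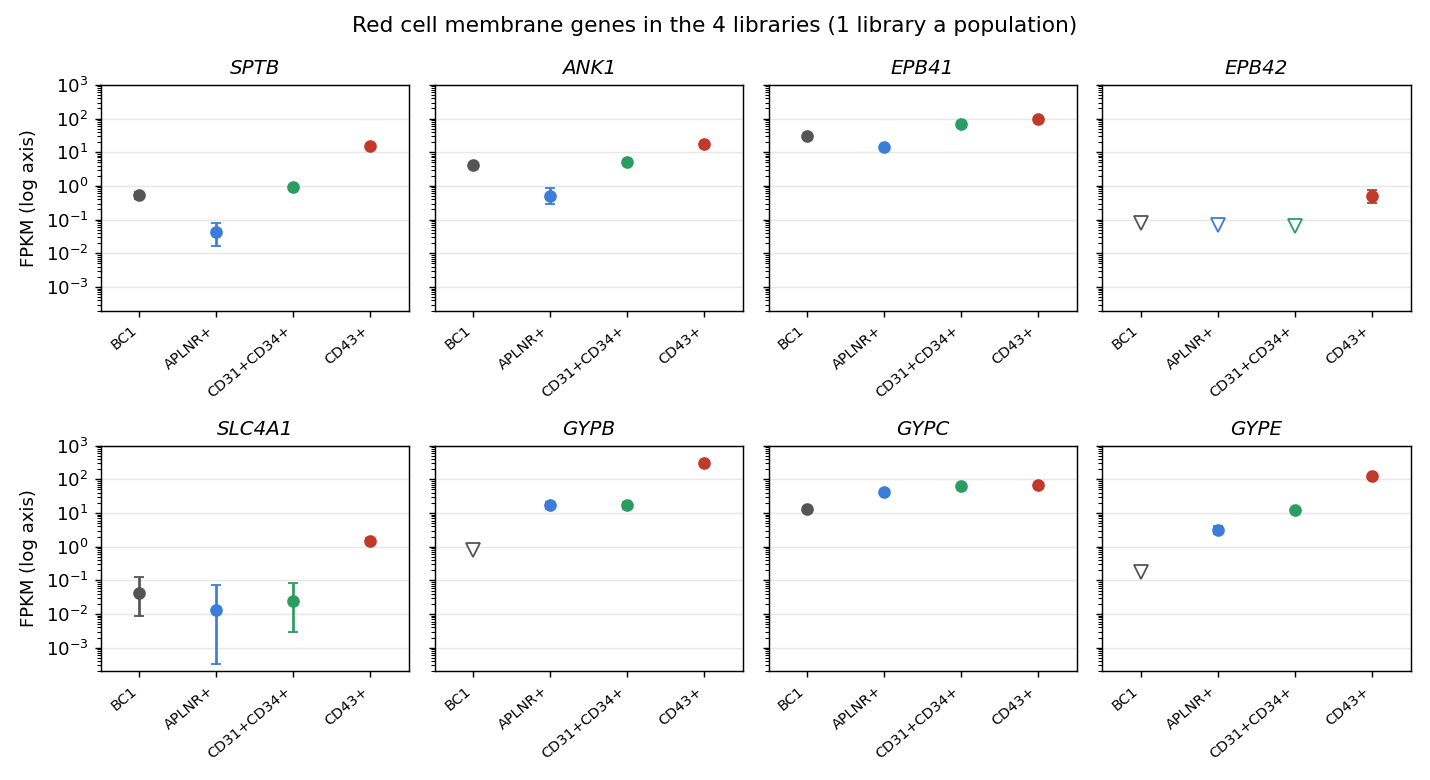
FPKM on a log axis of the 8 red cell membrane genes in the 4 libraries, 1 library each, with bars for exact Poisson 95% intervals of counting error and open triangles at the level of 3 fragments where no fragment was found. The 8 genes have their highest listed level in CD43+ cells, with overlapping intervals for GYPC in CD31+CD34+ and CD43+ cells. GYPC and EPB41 are already close to that level in CD31+CD34+ cells, whereas GYPB climbs from 17.0 to 303.7 FPKM at the last step.

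GYPB and GYPE reached the highest levels of the 8 genes in CD43+ cells, ahead of EPB41 and GYPC. They are copies of one another near each other on chromosome 4, whereas GYPC is unrelated to them in sequence. The coding sequences of GYPB and GYPE, from transcripts GYPB-202 and GYPE-202 of GENCODE 29, are shown because their likeness limits how reads can be assigned to either gene. On GRCh38, GYPB lies on the minus strand at chr4:143996104-144019345 and GYPE on the same strand at chr4:143870867-143905563. Capitals mark bases that differ from the other gene or are missing from it.
GYPB: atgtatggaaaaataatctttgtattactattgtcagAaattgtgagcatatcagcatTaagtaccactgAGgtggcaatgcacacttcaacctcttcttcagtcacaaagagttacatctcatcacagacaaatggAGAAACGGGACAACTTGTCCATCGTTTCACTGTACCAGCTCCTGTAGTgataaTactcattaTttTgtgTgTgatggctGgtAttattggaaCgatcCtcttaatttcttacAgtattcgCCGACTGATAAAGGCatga
GYPE: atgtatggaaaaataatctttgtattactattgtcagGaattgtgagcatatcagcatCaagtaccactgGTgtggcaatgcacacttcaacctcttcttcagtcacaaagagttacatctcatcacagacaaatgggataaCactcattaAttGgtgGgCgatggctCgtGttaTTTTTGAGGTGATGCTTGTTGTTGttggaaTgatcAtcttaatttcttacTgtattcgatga
In the alignment of these sequences, 199 of 213 aligned bases were identical (93.4%), and GYPB has a stretch in the middle that GYPE lacks. Of all 50-base words of GYPB transcripts, 2.71% also occurred in GYPE, and 1.2% of those of GYPE occurred in GYPB. Of the 100-base words, 0% were shared between GYPB and GYPE. The split of fragments between these genes is therefore uncertain, and by how much was not measured. Of the 50-base words of GYPB, 15% occurred in some other glycophorin gene compared, so the sum of GYPB and GYPE is uncertain too.

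GYPB, which carries the S and s blood group antigens, was listed at 0 in BC1. It stood at 17.13 FPKM (interval 13.2 to 21.7) in APLNR+ cells, at 17.0 FPKM (13.1 to 21.6) in CD31+CD34+ cells and at 303.7 FPKM (286 to 323) in CD43+ cells, where it ranked 251 among all genes. Its profile thus had a step at the mesoderm stage, a level stretch and a second step into HPCs. From HEPs to HPCs it rose 17.9-fold (14.0 to 23.4). GYPE, a close copy whose protein is little known on red cells, was also listed at 0 in BC1, and then stood at 3.114 FPKM (2.33 to 4.03), 12.71 FPKM (11.1 to 14.4) and 127.1 FPKM (122 to 132). Unlike GYPB it rose at both of the later steps, 4.08-fold (3.05 to 5.59) and then 10.0-fold (8.77 to 11.5). Against the level that 3 fragments would give in BC1, the CD43+ level was 369-fold higher for GYPB and 693-fold higher for GYPE. These ratios leave out the counting error in CD43+ cells.

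The order of GYPB and GYPE by approximate fragments depends on the transcript length assumed. The median coding transcript is 445 bases for GYPB and 1091.5 bases for GYPE, which has 2 coding transcripts, of 499 and 1684 bases. With these medians, each less the 285 bases taken off in CD43+ cells, GYPE had 2214 fragments there and GYPB 1050. This is the reverse of their order by FPKM. The bases taken off are a larger part of the short GYPB length, so its fragment number depends strongly on them. The reversal follows from the assumed lengths after this subtraction and is no separate measurement.

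GYPC, the glycophorin that anchors the skeleton junction and carries the Gerbich antigens, was present from the start. It lies on GRCh38 at chr2:126655933-126696675. Its level was 12.91 FPKM (11.3 to 14.6) in BC1, 43.4 FPKM (40.6 to 46.3) in APLNR+ cells, 62.71 FPKM (59.5 to 66.1) in CD31+CD34+ cells and 66.44 FPKM (63.0 to 70.0) in CD43+ cells. It rose 3.36-fold (2.92 to 3.89) at the first step. The ratio at the last step was 1.06 (0.983 to 1.14), so its levels in HEPs and HPCs did not differ beyond counting error.

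Among the skeleton genes, SPTB encodes the beta spectrin of red cells and lies at chr14:64746283-64879883. Its level was 0.5217 FPKM (0.416 to 0.645) in BC1, 0.04152 FPKM (0.016 to 0.082) in APLNR+ cells, 0.9198 FPKM (0.788 to 1.06) in CD31+CD34+ cells and 14.99 FPKM (14.4 to 15.6) in CD43+ cells. It was low in the first 3 libraries and rose 16.3-fold (14.0 to 19.1) from HEPs to HPCs. ANK1, the ankyrin that ties spectrin to the anion exchanger, lies at chr8:41653220-41896762. Its level was 4.109 FPKM (3.36 to 4.95) in BC1, 0.5073 FPKM (0.293 to 0.864) in APLNR+ cells, 5.026 FPKM (4.26 to 5.86) in CD31+CD34+ cells and 17.56 FPKM (16.0 to 19.2) in CD43+ cells. ANK1 dipped at the mesoderm stage: it fell 8.1-fold (4.54 to 14.5), rose 9.91-fold (5.63 to 17.5) and rose again 3.49-fold (2.92 to 4.22). In CD43+ cells ANK1 and SPTB ranked 4970 and 5506 among all genes.

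EPB41, the protein that strengthens the spectrin-actin junction and binds GYPC, lies at chr1:28887091-29120046. It was measured at 30.07 FPKM (28.9 to 31.3) in BC1, 14.57 FPKM (13.8 to 15.4) in APLNR+ cells, 71.39 FPKM (69.7 to 73.1) in CD31+CD34+ cells and 95.91 FPKM (93.8 to 98.0) in CD43+ cells. SPTB, ANK1 and EPB41 thus shared their lowest level in APLNR+ cells, where GYPB, GYPC and GYPE were above BC1. EPB41 rose 4.9-fold (4.61 to 5.21) from APLNR+ cells to HEPs, while its ratio at the last step was 1.34 (1.3 to 1.39). EPB41 has 25 coding transcript models, and which of them were used was not measured here.

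SLC4A1, the chloride and bicarbonate exchanger that is the most abundant protein of the mature red cell membrane, lies at chr17:44248385-44268141. It was near the limit of detection before the HPC stage, at 0.04318 FPKM in BC1, 0.01296 FPKM in APLNR+ cells and 0.02369 FPKM in CD31+CD34+ cells, which stand for about 3, 1 and 2 fragments. In CD43+ cells it reached 1.503 FPKM (1.24 to 1.8), a rise of 63.4-fold (17.2 to 530) over the HEPs, and ranked only 12516 among all genes. EPB42, a catalytically inactive member of the transglutaminase family that binds the anion exchanger and ankyrin, had no fragment in the first 3 libraries and about 21 in CD43+ cells, at 0.5105 FPKM (0.31 to 0.765). It did not reach the filter of 1 FPKM. Against the 3-fragment level in HEPs, the CD43+ level was 7.67-fold higher, a ratio that leaves out the counting error in CD43+ cells. In the table the EPB42 row spans chr15:43106225-43221283, which is wider than the gene in GENCODE 29 and takes in TMEM62 and CCNDBP1, so this low value is uncertain. SLC4A1 and EPB42 were the lowest of the 8 genes in CD43+ cells. By FPKM the order there was GYPB, GYPE, EPB41, GYPC, ANK1, SPTB, SLC4A1 and EPB42, and no neighbours in this order had overlapping counting intervals. In CD31+CD34+ cells the order was EPB41, GYPC, GYPB, GYPE, ANK1 and SPTB, with overlapping intervals for GYPB and GYPE, and in APLNR+ cells the intervals of GYPB and EPB41 overlapped.

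Changes were counted on the log2(FPKM + 1) scale, with a change of at least 1 called a rise or a fall. From BC1 to APLNR+ cells, 3 of the 8 genes rose (GYPB, GYPC and GYPE) and ANK1 fell, whereas 9.15% of the 17137 genes with at least 1 FPKM in some library rose and 9.32% fell. EPB41 was 2.06-fold lower in APLNR+ cells (1.92 to 2.21), a change just short of the threshold, and was not counted. From APLNR+ cells to HEPs, ANK1, EPB41 and GYPE rose and none of the 8 fell, against 13% and 11.4% of all genes. From HEPs to HPCs, 5 rose (SPTB, ANK1, SLC4A1, GYPB and GYPE) and none fell, against 7.63% and 13.5% of all genes. From BC1 to HPCs, 7 of 8 rose, all but EPB42, against 15.2% of all genes that rose and 18.9% that fell. The 8 genes include EPB42, which was below the filter applied to the other genes. Their median change was -0.02, 0.70 and 1.46 at the 3 steps and 2.07 from BC1 to HPCs, beside medians of 0.00, 0.01, -0.08 and -0.06 over all filtered genes.

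**Figure D2:**
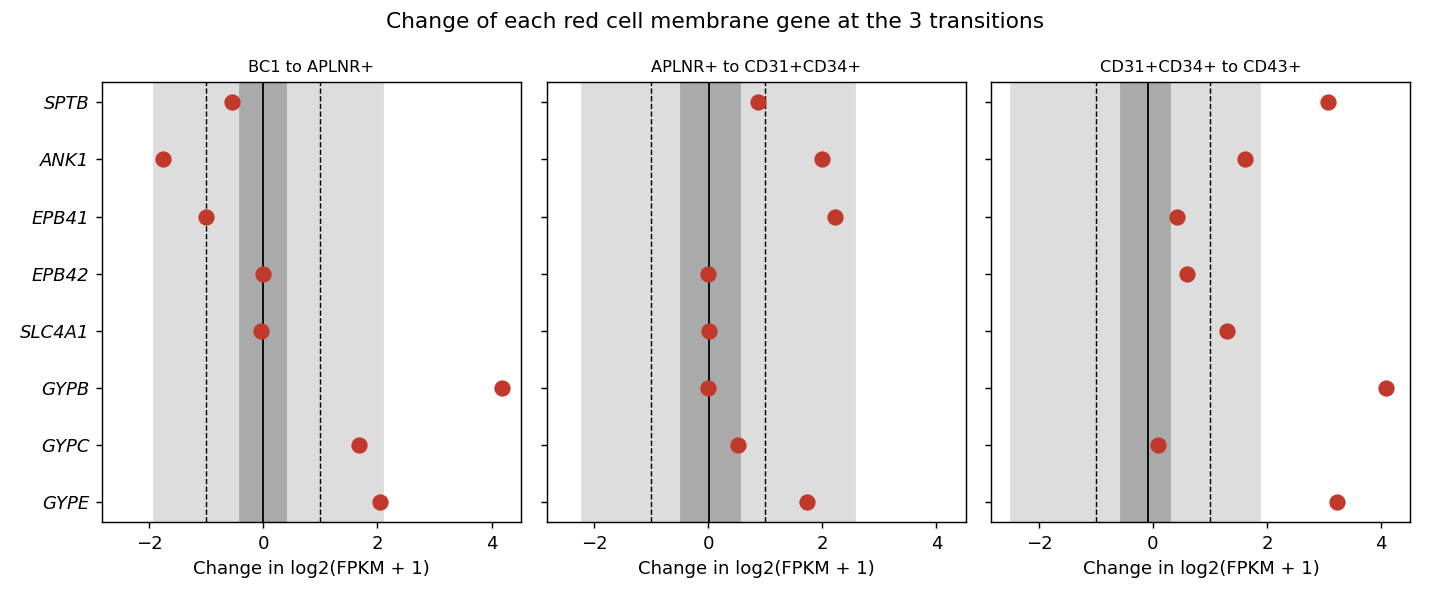
Change in log2(FPKM + 1) of each of the 8 genes at the 3 steps, 1 panel a step, over the central 95% (light grey) and central 50% (dark grey) of 17137 genes, with the median as a line and changes of 1 in size dashed. At the last step GYPB, GYPE and SPTB lie highest, at 4.08, 3.22 and 3.06, while GYPC and EPB41 stay at 0.08 and 0.42.

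Paralogs of the skeleton genes that other tissues use mostly fell at the last step. SPTBN1, the widely expressed beta spectrin, fell from 97.81 FPKM in HEPs to 45.5 FPKM in HPCs, 2.15-fold lower (2.1 to 2.21). SPTAN1, a spectrin of other tissues, fell from 43.53 to 8.468 FPKM. Of the 13 spectrin, ankyrin and EPB41L paralogs, 9 fell and none rose at this step, against 13.5% and 7.63% of all genes, with a median change of -1.31, and 12 of the 13 passed the filter. Among them EPB41L1 fell from 8.502 to 0.455 FPKM, EPB41L2 from 96.54 to 38.37 FPKM, EPB41L3 from 9.158 to 2.285 FPKM and ANK2 from 2.973 to 0.6772 FPKM. Of the 13 anion exchanger and transglutaminase paralogs, 2 fell and none rose, a share of falls near the 13.5% over all genes, with a median change of -0.07, and 9 passed the filter. These were TGM2, a tissue transglutaminase of endothelial cells, from 69.66 to 6.452 FPKM, and SLC4A8, a bicarbonate transporter, from 3.624 to 0.2292 FPKM. Over the same step 6 of 8 endothelial markers fell.

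In the beta spectrin, ankyrin, EPB41 and anion exchanger families, the red cell gene had its largest share in HPCs. SPTB held 0.878%, 0.0944%, 0.878% and 24.2% of the summed FPKM of 5 beta spectrins in BC1, APLNR+, CD31+CD34+ and CD43+ cells. SPTBN1 still held 73.5% in CD43+ cells. ANK1 held 15.6%, 8.05%, 41.1% and 80.6% of 3 ankyrins by FPKM. In CD31+CD34+ cells its interval overlapped that of ANK3 (3.04 to 5.69 FPKM), and by approximate fragments ANK2 led there, with 236 against 156 for ANK1. EPB41 held 27.7%, 11.4%, 35.0% and 67.2% of 7 genes of its family. It was below EPB41L2 in CD31+CD34+ cells by FPKM, but above it by approximate fragments, 6574 against 6028. SLC4A1 stayed a minor anion exchanger, with 0.0764%, 0.0127%, 0.035% and 2.18% by FPKM, and 13.5% by approximate fragments in CD43+ cells. The broadly expressed exchanger SLC4A2, named here after its values were seen, held 97.8% by FPKM in CD43+ cells. It was nearly level from HEPs to HPCs, at 67.21 and 67.43 FPKM, with a ratio of 1.0 (0.907 to 1.11). Approximate fragments are FPKM values multiplied by the fitted depth and an assumed length, so they are no second measurement of these shares. The assumed length is the median coding transcript less 260 to 285 bases, depending on the library. The median coding transcript was 3855 bases for SLC4A1 and 793 for SLC4A2, although their longest coding transcripts are alike, at 4958 and 4925 bases.

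**Figure D3:**
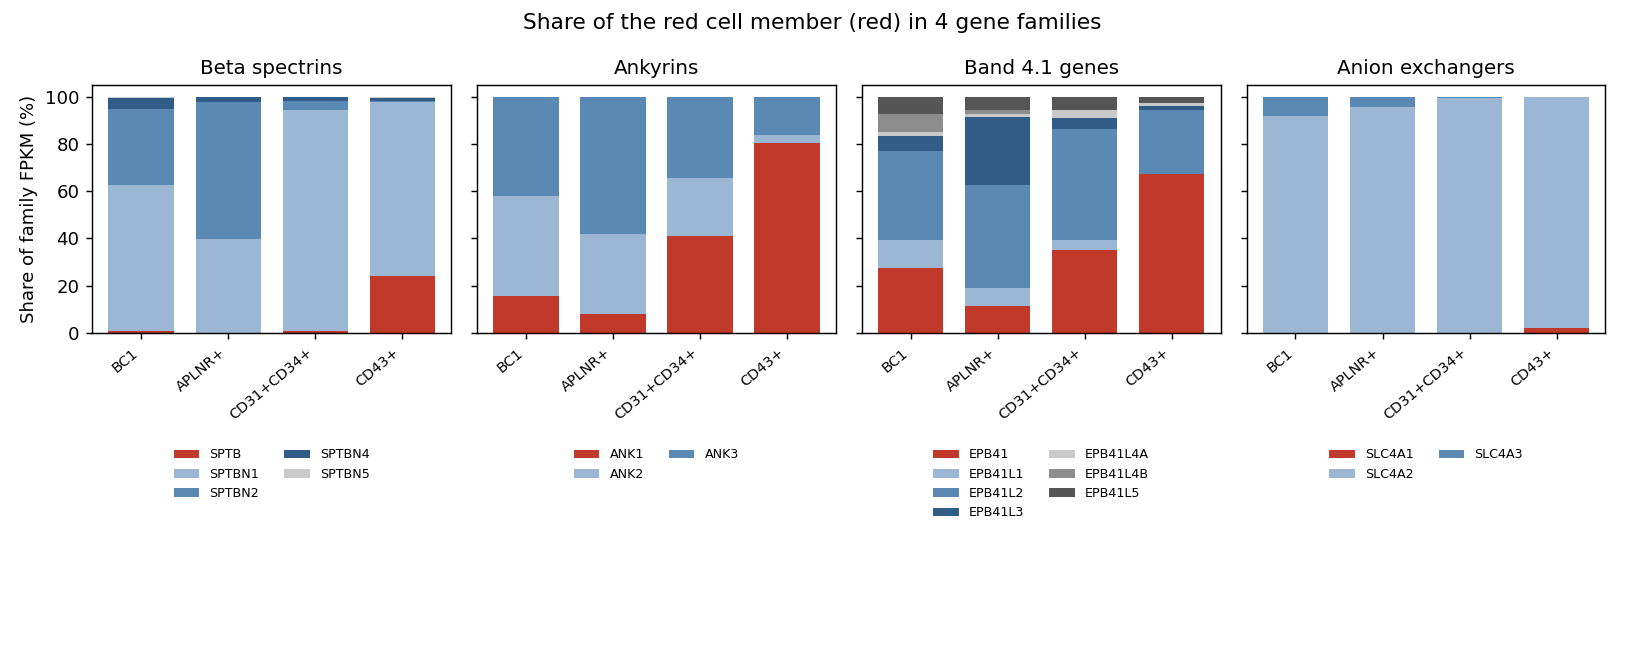
Share of the summed FPKM of 4 gene families (%) held by each gene in the 4 libraries, with the red cell gene in red at the base of each bar. In CD43+ cells ANK1 and EPB41 hold most of their families (80.6% and 67.2%), SPTB holds 24.2% and SLC4A1 2.18%.

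The other proteins of the red cell membrane were taken from a list of 12 skeleton partners and a list of 23 surface and transport proteins. Of the partners, 5 rose and 1 fell from HEPs to HPCs, against 7.63% and 13.5% of all genes, with a median change of 0.26. Among those that rose, DMTN, an actin-bundling protein of the junction, went from 2.72 to 45.23 FPKM, 16.6-fold (13.6 to 20.5). STOM, a lipid raft protein, rose from 41.51 to 138.5 FPKM, MPP1, which binds EPB41 and GYPC, from 69.75 to 183.8 FPKM, and ACTB, the beta actin of the junction, from 1032 to 3021 FPKM. ADD2, the beta adducin of red cells, was the 1 partner called as a fall. The level of ADD2 was 133.6 FPKM in BC1, 27.11 FPKM in APLNR+ cells, 7.588 FPKM in HEPs and 1.981 FPKM in HPCs. The other 6 of the 12 partners had no call, and some of them were also lower in HPCs than in HEPs.

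Of the 23 surface and transport genes, 19 passed the filter, 9 rose and 2 fell from HEPs to HPCs, against the same shares of all genes, with a median change of 0.47. The genes that rose included RHAG, the ammonium channel of the Rh complex, from 25.42 to 110.8 FPKM (4.36-fold, 3.98 to 4.78). RHAG had been at 0.04954 FPKM in APLNR+ cells, and its HEP level was above that of SPTB and SLC4A1, at 0.9198 and 0.02369 FPKM. CD47, a signal against phagocytosis that sits in the same complex, rose from 21.84 to 185.4 FPKM, and CD55, which restrains complement, from 8.892 to 82.38 FPKM. ICAM4, an adhesion protein of erythroblasts, rose from 20.25 to 105.4 FPKM. The blood group protein KEL was already at 14.13 FPKM in APLNR+ cells and 37.61 FPKM in HEPs before it reached 126.8 FPKM. ABCB6, SLC2A1 and RHD also rose, RHD to only 3.198 FPKM. The genes that fell were BCAM, the Lutheran adhesion protein, from 56.6 to 12.88 FPKM, and ATP2B4, a calcium pump, from 16.71 to 4.754 FPKM. At the step before, from APLNR+ cells to HEPs, 9 of these 23 genes rose and none fell, against 13% and 11.4% of all genes.

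**Figure D4:**
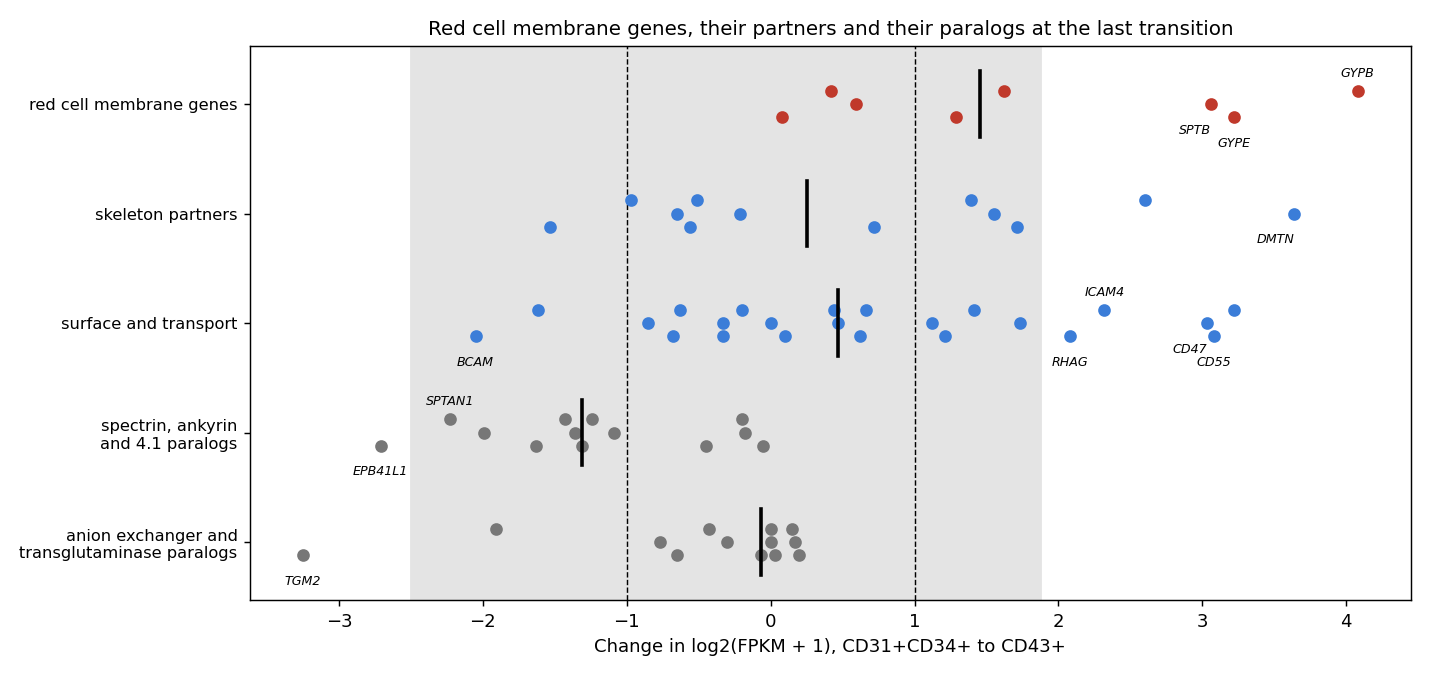
Change in log2(FPKM + 1) from CD31+CD34+ to CD43+ cells for the 8 genes (red), their partners and other surface proteins (blue) and their paralogs (grey), 1 point a gene, with black bars for list medians, the central 95% of all filtered genes shaded and changes of 1 in size dashed. The medians are 1.46, 0.26 and 0.47 for the red cell lists and -1.31 and -0.07 for the paralog lists.

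Sequence next to the start sites was examined for the genes with a RefSeq promoter window on GRCh38.p14. Windows were found for 6 of the 8 genes, 9 in all, with none for ANK1 and SLC4A1. In the 250 bases upstream of the start, GATA letters (AGATAA, also with T as its first base or G as its last base, on either strand) were found in 7 of 9 windows and at least once for 6 of 6 genes, against 22.3% of 35116 windows and 26.2% of 27305 genes with a window. GATA1, the erythroid factor that binds such letters, was listed at 0 in BC1 and APLNR+ cells and stood at 13.39 FPKM in HEPs and 189.8 FPKM in HPCs. GYPB, GYPC and GYPE were already above their BC1 level in APLNR+ cells. Of the genes with GATA letters, GYPB, GYPE and SPTB were called as a rise from HEPs to HPCs, and EPB41, EPB42 and GYPC were not. A link between GATA1 and the levels of these genes was not tested. AGATAA within 50 bases of the start, a position chosen after the matches were seen, was found for GYPB, GYPE and SPTB, and for 2.08% of all genes with a window. Their upstream stretches are shown because 150 bases free of annotated exons could be printed up to the GATA match nearest the start. Each stretch therefore ends in a match by choice, and capitals mark GATA matches. The stretch of GYPE, chr4:143905599-143905748 on the minus strand, runs from 189 to 40 bases before the start. That of GYPB, chr4:144019379-144019528 on the minus strand, runs from 183 to 34 bases before it. That of SPTB, chr14:64879944-64880093 on the minus strand, runs from 186 to 37 bases before it.
GYPE upstream: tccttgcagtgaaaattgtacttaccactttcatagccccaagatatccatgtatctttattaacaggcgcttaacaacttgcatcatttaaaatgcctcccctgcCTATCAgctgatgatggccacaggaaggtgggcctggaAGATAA
GYPB upstream: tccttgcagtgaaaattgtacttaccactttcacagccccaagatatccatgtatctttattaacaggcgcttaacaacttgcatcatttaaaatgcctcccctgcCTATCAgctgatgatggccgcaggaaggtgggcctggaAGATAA
SPTB upstream: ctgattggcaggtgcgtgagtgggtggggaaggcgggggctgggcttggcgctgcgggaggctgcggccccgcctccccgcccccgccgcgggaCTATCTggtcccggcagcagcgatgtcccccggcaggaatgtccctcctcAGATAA
The windows of GYPB and GYPE were 98% identical over 244 aligned bases, so their matches are one observation rather than a pair, and both windows of GYPB overlap. The E-box letters CAGATG or CAGCTG, which the factor TAL1 can bind, were found for 4 of 6 genes against 28.2% of all genes with a window. In GYPB and GYPE the E-box CAGCTG shares its first bases with the upstream GATA match. The letters CCNCNCCC, which KLF factors can bind, were found for 4 of 6 genes against 56.4%, and some of these matches overlap one another. TATAAA was found for 1 of 6 genes against 13% of all genes. These matches are letters in a window, and no binding was measured in these libraries.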

How the data were processed

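Total RNA of the 4 populations was made into libraries with an Illumina TruSeq RNA kit. The authors deposited 1 table of gene-level FPKM values. The submitters' processing notes name BWA, Bowtie, RSEM and hg19 with no role, but the loci of the table matched GENCODE 29 on GRCh38, so coordinates are given on GRCh38, counted from 1. How strand was treated is not given in the sources used here, so fragments of overlapping genes (PLEKHG3 with SPTB, TMEM200B with EPB41) may be shared. No header names the unit, which was taken from the study's axes and from the values.

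The table held 58365 rows for 58274 identifiers, 90 of them on more than 1 row, which were summed. Listed values below 1e-04 were treated as no fragment. Depth was fitted from the steps between low values of genes with transcripts of at least 1000 bases, of which 92.7% to 94.7% fell within 0.1 of a whole fragment. The fitted depth was 19680000 mapped fragments (BC1), 21480000 (APLNR+), 23600000 (CD31+CD34+ cells) and 21600000 (CD43+ cells). Fragments per gene were approximated from the median length of its coding transcripts. Intervals for levels are exact Poisson and those for folds Clopper-Pearson, at 95%. A level of 3 fragments was the floor. Changes are differences of log2(FPKM + 1), which understate folds of low genes, and a change of 1 or more in size was called. The filter kept the 17137 genes that reached 1 FPKM in some library. The depth fit and the calling of changes were run on simulated counts with counting error only. These simulations did not cover variation between libraries, unknown transcript lengths or changes planted in low genes.

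The members and the gene lists were chosen with earlier results of these data known. All 8 members are named in every library. Other genes are named where their change between HEPs and HPCs was called, markers as the 3 highest of a list or as identity checks, and nearest profiles as the 3 protein-coding genes closest to a member. Python 3.11.15, numpy 2.4.6, pandas 2.3.3, scipy 1.17.1, Biopython 1.88 and matplotlib 3.10.9 were used. Alternatives were another pseudocount, filter, threshold, scaling or transcript length, and fragments in place of FPKM. Results for some genes that meet these rules are not reported here.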

Additional observations from a re-analysis of the deposited data

How the results depend on the processing

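No paired analysis was possible because each population had 1 library, and no replicate could be left out. Among 828 recomputed single-gene changes, no called rise became negative and no called fall positive, while some uncalled changes near 0 changed sign. Scaling all libraries to the same total kept each count of rises and falls within 1.5 times. The GYPC change at the last step, 0.08, became -0.04 with the same total in each library, so it has no direction.

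Falls among the 8 genes from BC1 to APLNR+ numbered 1, and became 3 with a pseudocount of 0.1, 2 with median-of-ratios scaling and 0 with a threshold of 2. With that threshold, rises among the 8 were 1 (APLNR+ to CD31+CD34+, from 3), 3 (CD31+CD34+ to CD43+, from 5) and 4 (BC1 to CD43+, from 7). For the 35 other red cell membrane genes, the threshold of 2 left 2 rises and 2 falls at the first step, 5 and 1 at the second and 7 and 1 at the last. A pseudocount of 0.1 gave them 8 falls at the first step, 18 rises at the second and 6 falls at the last. For the 26 paralogs, the threshold of 2 left 0 falls at the first step, 2 rises and 1 fall at the second and 3 falls at the last, and the pseudocount gave 4 rises and 9 falls at the first and 1 rise at the last. With a filter of 5 FPKM, 1019 genes fell from BC1 to APLNR+, among fewer genes.

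Family shares changed with approximate fragments in place of FPKM, which weights each gene by its assumed transcript length. In CD31+CD34+ and CD43+ cells, ANK1 then held 36.0% and 86.0%, and EPB41 46.0% and 75.4%, and SLC4A1 held 13.5% in CD43+ cells. Depth limited SLC4A1 and EPB42, which rest on 3 or fewer fragments in every library before CD43+.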

Other observations

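For each of the 7 genes that reached 1 FPKM, the protein-coding genes with the closest course over the 4 libraries were listed by the distance between centred log2(FPKM + 1) profiles, among 13861 genes. With 4 points, each from 1 library, this describes a course and says nothing of function or control. GYPB was closest to MYL4, an embryonic myosin light chain, at a distance of 0.68, then to GYPE at 1.65 and to EGR1 at 1.85. GYPE was closest to EGR1 (0.61), ICAM4 (1.04) and ADRA2A (1.08). Genes close to SPTB included CMPK2 (0.28) and MDM1 (0.37). ANK1 was closest to SERPINI1 (0.39), HS3ST4 (0.39) and ANKRD33B (0.43).

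GYPC was closest to FBRS (0.1), ZNF710 (0.13) and SOAT1 (0.15), EPB41 to LCN9 (0.17), C15orf39 (0.18) and IER2 (0.2), and SLC4A1 to ARHGAP15 (0.04), GDF1 (0.05) and CD2 (0.06). SLC4A1 and its neighbours stood near 0 before the CD43+ stage and between 1.4 and 1.55 FPKM in it. On the log2(FPKM + 1) scale such low levels give small distances, which cannot be set against those of GYPB or GYPE. Other erythroid markers spanned a wide range in the CD43+ library: the beta globin gene HBB stood at 6.356 FPKM, the alpha globin genes HBA1 and HBA2 at 65.33 and 417 FPKM, AHSP, the chaperone of alpha globin, at 3.082 FPKM and ALAS2, the erythroid enzyme of heme synthesis, at 126.4 FPKM. KLF1, an erythroid transcription factor, stood at 0.1905, 7.394, 17.93 and 68.68 FPKM in BC1, APLNR+, CD31+CD34+ and CD43+ cells.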
